A study of Homo sapiens with 10 samples.

Results

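The 9 genes described here fall into several groups. CPT1A, SLC25A20, ACADVL, HADHA and HADHB serve fatty acid oxidation. PDK4 and ANGPTL4 belong to the fasting response that PPAR receptors are known to drive. FBP1, a gene of gluconeogenesis, and TXNIP complete the set. All 9 were taken by gene symbol from the expression table. Each had exactly 1 transcript cluster, the probe group that the array reads as a gene. They make up 9 of the 21214 clusters with a symbol. The table holds 33297 clusters in all.

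RNA from THP-1 cells, a human monocytic leukaemia line, was hybridised to Affymetrix Human Gene 1.0 ST arrays. All cells, controls included, were first turned into macrophages with the phorbol ester PMA (160 nM) for 24 h. They then received DMSO (the solvent), punicalagin (10 µM), myricetin or quercetin for 24 h. The doses of myricetin and quercetin are not given in the sources used here, so matched doses cannot be assumed. DMSO and punicalagin have 3 arrays each, from cells of passages 6, 7 and 8, numbered as replicates 1, 2 and 3. Myricetin and quercetin have 2 arrays each, from passages 7 and 8, numbered 1 and 2. Because all 10 arrays come from a single leukaemia line, p-values describe the spread between passages of that line. Punicalagin is a large ellagitannin of pomegranate. Myricetin and quercetin are flavonols that differ by a hydroxyl group on the B ring.

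Long-chain fatty acids are burned in the mitochondrion after they cross its inner membrane as acylcarnitines. PPARA and PPARD, receptors that bind fatty acids, are known to raise the genes of this route in fasting, together with PDK4, which holds back the entry of glucose carbon, and ANGPTL4, a secreted inhibitor of lipoprotein lipase. PPARG, the related receptor of fat cells and macrophages, is better known for genes of lipid uptake and storage. FBP1 is a gluconeogenic enzyme, and TXNIP is an arrestin-like protein that binds thioredoxin, slows glucose uptake and is driven by the glucose sensors MondoA and ChREBP.

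The values were log2 intensities, already background-corrected and normalized by the authors with RMA, and a difference of 1 on this scale is a change of 2-fold. Markers of cell type were checked first. Of 9 monocyte and macrophage markers, 8 were above the upper quartile of all clusters on every array. CD14, the other marker, lay between the 59.0 and the 93.4 percentile. All cells had received PMA, so these markers cannot tell macrophages from the monocytes they came from. Of 11 markers of other cells, 7 were below the median on every array, among them CD3E, MS4A1, EPCAM and ALB. PECAM1 and KRT18 were above the upper quartile on every array. NKG7 (53.4 to 63.4 percentile) and COL1A1 (59.2 to 62.6) lay between the median and the upper quartile. The mean of the monocyte and macrophage markers per array was 9.36 to 9.61 with DMSO and 9.68 to 10.38 with punicalagin. It was 9.50 to 9.59 with myricetin and 9.58 to 9.73 with quercetin. The part of the markers in the results was not tested.

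The DMSO array of passage 6 stood apart, with a mean correlation of 0.969 with the other arrays against 0.977 to 0.984 for the other 9. On it 11 of 12 NF-kB inflammatory genes were higher than on the other DMSO arrays, with a median difference of 0.90. The 9 genes differed there from the other DMSO arrays by -0.66 (ACADVL) to 0.46 (PDK4). The mean of the inflammatory genes per array was 7.63 to 8.91 with DMSO, 7.45 to 7.82 with punicalagin, 7.40 to 7.72 with myricetin and 8.35 to 8.40 with quercetin, which lay above both other compounds and within the range of DMSO. Whether this bears on the 9 genes was not tested.

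Promoter windows from RefSeq (GRCh38.p14, 250 bases before each start and 50 after) were found for all 9 genes, 11 windows in all. They were searched on both strands for DR1, the element that PPAR and RXR bind (the half-site AGGTCA, repeated with 1 base between, at most 2 mismatches). No window of the 9 genes held it, while 2.97% of 35116 windows of all genes did. The E-box CACGTG was likewise in none of them, against 7.26% of all windows. Repeated E-boxes with 5 bases between and at most 2 mismatches, the arrangement known as a carbohydrate response element, were in 1 window, that of TXNIP, and in 1.01% of all windows. The TATAAA box, searched on the strand of the gene, was found in ANGPTL4 alone among the 9 genes, with its first base 29 bases before the start, and in 7.33% of all windows. These matches describe letters in short windows, and elements outside them were not searched.

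The TXNIP sequence is shown because TXNIP was the gene that separated quercetin from both other compounds below. It covers chr1:145996580-145996829 of GRCh38.p14 on the minus strand, the 250 bases before the start. Capitals mark the repeated E-box, which begins 88 bases before the start with 2 mismatches.
TXNIP: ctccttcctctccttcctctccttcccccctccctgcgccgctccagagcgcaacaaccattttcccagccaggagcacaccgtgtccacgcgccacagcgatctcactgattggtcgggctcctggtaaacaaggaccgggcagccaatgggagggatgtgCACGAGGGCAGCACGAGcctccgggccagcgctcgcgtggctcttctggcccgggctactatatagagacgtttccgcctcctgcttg

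HADHA and HADHB, whose products form the 2 subunits of the mitochondrial trifunctional protein, lie head to head on chromosome 2, with HADHA on the minus and HADHB on the plus strand. Their starts, at 26244632 and 26244939, have 306 bases between them, and their windows share 194 bases. The shared stretch, chr2:26244689-26244882 on the plus strand, is shown because the expression of this pair is compared below, and it has no capitals since no motif was found in it.
HADHA and HADHB: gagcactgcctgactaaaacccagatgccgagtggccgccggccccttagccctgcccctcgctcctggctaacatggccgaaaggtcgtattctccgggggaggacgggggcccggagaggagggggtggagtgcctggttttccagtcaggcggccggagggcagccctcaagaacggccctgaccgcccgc

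In the main fits against DMSO, none of the 9 genes passed an adjusted p of 0.05 with any of the 3 compounds. The test was limma, adjusted over all 21214 clusters. For punicalagin the main fit held only its own and the DMSO arrays, while for the other compounds it held all 10 arrays. With all 10 arrays in the fit, SLC25A20 and FBP1 passed for punicalagin too, beside 4.78% of all clusters. The share of all clusters passing in the main fits was 2.33% for punicalagin (452 higher and 42 lower), 0.509% for myricetin and 3.92% for quercetin. At an unadjusted p under 0.05 there were 3 of 9 genes for punicalagin (CPT1A, SLC25A20 and FBP1) against 12.3% of all clusters. There were 4 for myricetin (SLC25A20, PDK4, FBP1 and TXNIP) against 8.62%, and 2 for quercetin (FBP1 and TXNIP) against 14.8%.

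The arrays of a compound and DMSO did not overlap for 3 of the 9 genes with punicalagin (17.5% of all clusters), for 5 with myricetin (23.7%) and for 4 with quercetin (31.8%). On the arrays of passages 7 and 8 alone these counts were 5, 8 and 6, where the share of all clusters was 43.3%, 48.4% and 53.4%. The median change of the 9 genes was 0.25 with punicalagin, 0.10 with myricetin and -0.03 with quercetin, against -0.05, 0.00 and -0.04 over all clusters. The 3 comparisons share the DMSO arrays and are therefore not independent of each other. In direct comparisons, 3 genes differed between punicalagin and quercetin (3.91% of all clusters) and 1 between myricetin and quercetin (1.70%). These calls depended on single arrays, as given below.

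**Figure D1:**
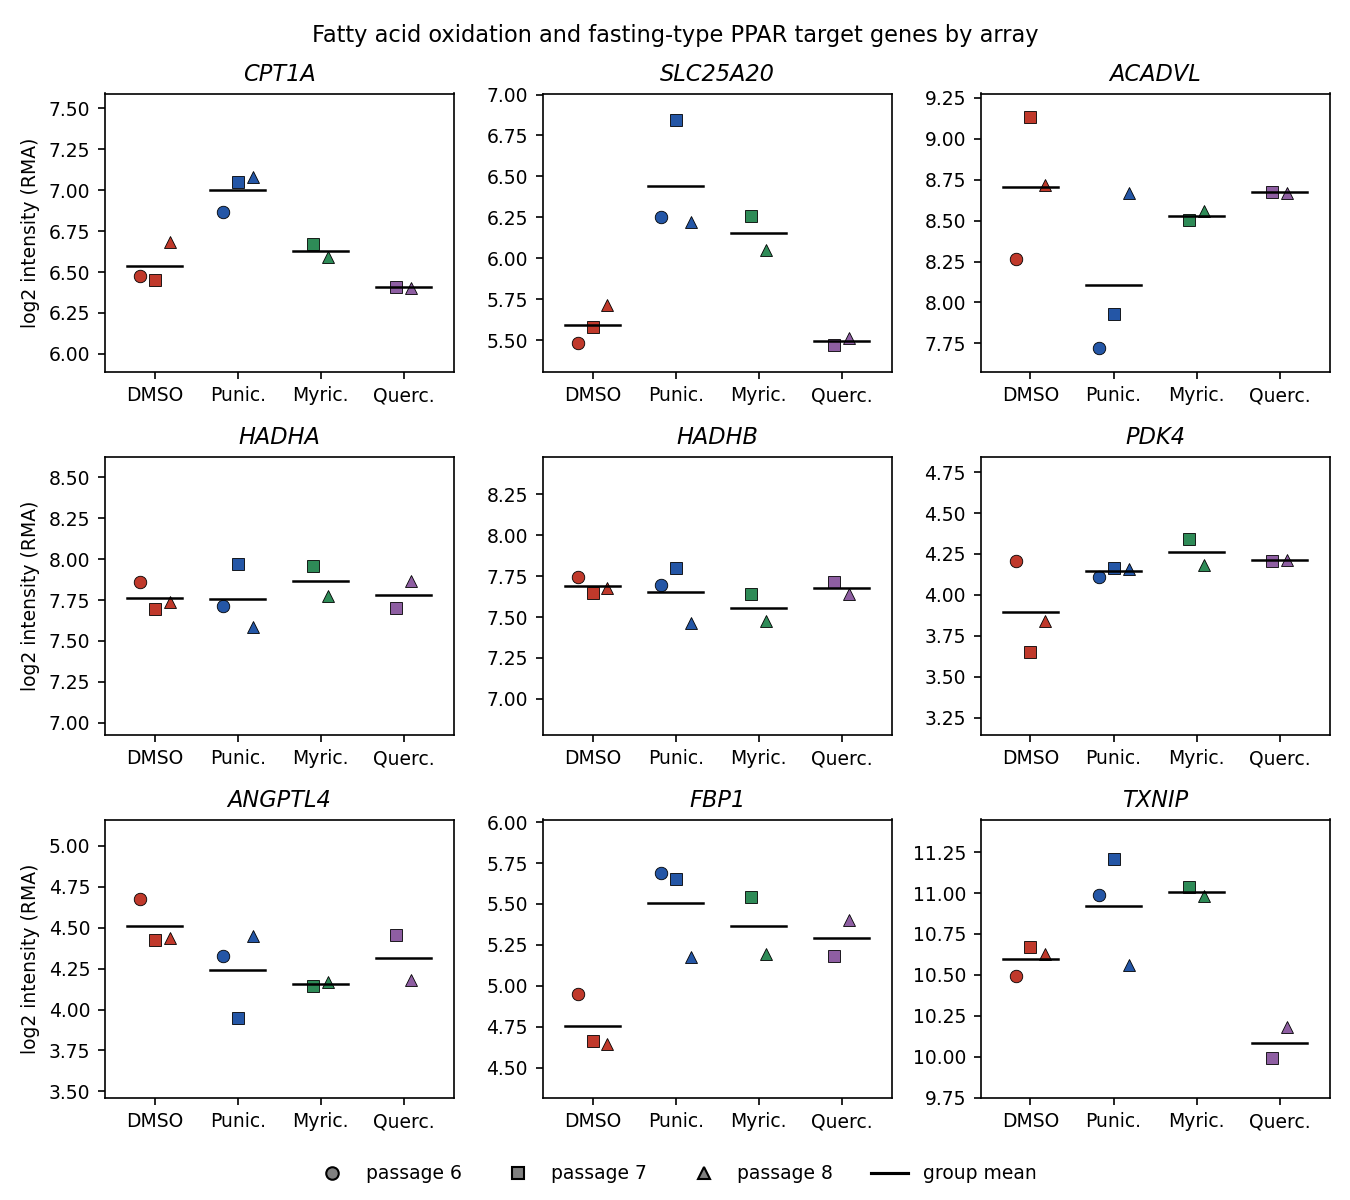
Log2 intensity (RMA) of the 9 genes on each of the 10 arrays, by treatment, with symbols for the passage and a line at the group mean; every panel spans the same height on the log2 scale. CPT1A and SLC25A20 are highest with punicalagin, FBP1 is lowest with DMSO, TXNIP is lowest with quercetin, and HADHA overlaps between all groups.

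CPT1A makes acylcarnitines at the outer mitochondrial membrane and is the regulated step of entry. Its log2 intensities were 6.47, 6.45 and 6.68 with DMSO, 6.87, 7.05 and 7.08 with punicalagin, 6.67 and 6.59 with myricetin, and 6.41 and 6.40 with quercetin, each in the order of the passages. All punicalagin arrays lay above all other arrays. The quercetin arrays lay below all others, and the myricetin arrays fell within the range of DMSO.

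The punicalagin change from DMSO was 0.46 on the log2 scale (SE 0.14), or 1.38-fold, with an adjusted p of 0.179 (limma) and a rise in 3 of 3 passages. The change with myricetin was 0.10 (SE 0.14, adjusted p 0.943, limma) and that with quercetin -0.13 (SE 0.14, adjusted p 0.766, limma). Neither was larger than its error. Directly compared, CPT1A was 1.51-fold higher with punicalagin than with quercetin, at 0.59 on the log2 scale (95% interval 0.30 to 0.89, adjusted p 0.0334, limma). Between punicalagin and myricetin the difference of 0.37 (0.07 to 0.66) had an adjusted p of 0.377 (limma).

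SLC25A20, the carrier that brings acylcarnitines across the inner membrane, showed the same order of treatments. Its log2 intensities were 5.48, 5.58 and 5.72 with DMSO, 6.25, 6.84 and 6.22 with punicalagin, 6.26 and 6.05 with myricetin, and 5.47 and 5.52 with quercetin. Punicalagin and myricetin arrays overlapped with each other and lay above all DMSO and quercetin arrays, while DMSO and quercetin overlapped. The punicalagin array of passage 7 was the highest by 0.59.

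The change of SLC25A20 from DMSO was 0.85 with punicalagin (SE 0.19, 1.80-fold, adjusted p 0.0617, limma), and it was positive in 3 of 3 passages, at 0.77, 1.26 and 0.51. This adjusted p fell to 0.0141 at the lowest over the alternatives and rose to 0.208 at the highest, so the gene lies near the threshold. SLC25A20 passed with all 10 arrays in the fit, with array weights and among clusters above the median. With myricetin the change was 0.56 (SE 0.19, adjusted p 0.366, limma) and with quercetin -0.10 (SE 0.19, adjusted p 0.891, limma). SLC25A20 was 1.93-fold higher with punicalagin than with quercetin (0.95 on the log2 scale, 95% interval 0.53 to 1.36, adjusted p 0.0174, limma). Myricetin exceeded quercetin by 0.66 (0.21 to 1.11), with an adjusted p of 0.155 (limma), and punicalagin exceeded myricetin by 0.29 (-0.13 to 0.70).

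Across the 10 arrays the log2 intensities of CPT1A and SLC25A20 correlated at 0.87 (Pearson), and those of SLC25A20 and TXNIP at 0.82. These correlations describe 10 arrays that share treatments and passages. The clusters most like CPT1A were IFNGR1 (0.97), CD99 and ESYT1 (0.95 each), out of 4204 clusters with an SD of at least 0.3. Those most like SLC25A20 were THBS2 and PIGR (0.98 each) and CNTN4 (0.97). As many as 45 and 55 clusters had correlations above 0.9 with CPT1A and SLC25A20.

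ACADVL carries out the first step of beta-oxidation on very long chains. It was 8.26, 9.13 and 8.72 with DMSO and 7.72, 7.93 and 8.67 with punicalagin, so that the groups overlapped and the DMSO arrays alone spanned 0.87. The myricetin arrays read 8.50 and 8.56 and the quercetin arrays 8.67 and 8.67, within the range of DMSO. The change with punicalagin was -0.60 (SE 0.28, adjusted p 0.462, limma). It was negative in 3 of 3 passages but by -0.05 at passage 8 against -1.20 at passage 7. Its 95% interval ran from -1.24 to 0.05, the widest of the 9 genes. Without the DMSO array of passage 6 the change of ACADVL was -0.82 with punicalagin, -0.39 with myricetin against -0.17 with it, and -0.25 with quercetin against -0.03.

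HADHA and HADHB, which carry the later steps on long chains, were the least variable of the 9 genes, with SDs of 0.12 and 0.11 over the 10 arrays. HADHA lay between 7.58 and 7.97 and HADHB between 7.46 and 7.80, and the lowest array of both was punicalagin of passage 8. For HADHB both myricetin arrays were below all DMSO arrays, by as little as 0.01. In the 6 comparisons the differences of HADHA lay between -0.11 and 0.10 and those of HADHB between -0.13 and 0.10, all within their errors. The 95% intervals of the changes with punicalagin were -0.35 to 0.34 for HADHA and -0.36 to 0.29 for HADHB. Changes within these intervals are compatible with the arrays. They are not limits of detection, since 0.46 for CPT1A and 0.85 for SLC25A20 did not pass in this comparison either. The log2 intensities of HADHA and HADHB, the head-to-head pair, correlated at 0.53 over the 10 arrays.

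PDK4 phosphorylates and switches off pyruvate dehydrogenase, and in muscle and liver it is among the strongest fasting genes. Here it gave a dim signal, at the 25.2 to 35.0 percentile of all clusters, and the table has no detection calls. The DMSO arrays read 4.20, 3.65 and 3.84, the punicalagin arrays 4.11, 4.16 and 4.16, the myricetin arrays 4.34 and 4.18, and the quercetin arrays 4.21 and 4.22. The DMSO array of passage 6 lay among the treated arrays, and the other DMSO arrays lay below all of them. The changes were 0.25 with punicalagin (adjusted p 0.643, limma), 0.37 with myricetin (0.564) and 0.31 with quercetin (0.420). Without the DMSO array of passage 6 they were 0.40, 0.52 and 0.47, with adjusted p of 0.198, 0.0958 and 0.0612 (limma), still past no threshold.

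ANGPTL4 was also dim, at the 30.8 to 40.9 percentile. It read 4.68, 4.43 and 4.44 with DMSO, 4.33, 3.95 and 4.45 with punicalagin, 4.14 and 4.17 with myricetin, and 4.45 and 4.18 with quercetin. Myricetin lay below all DMSO arrays, and the other compounds overlapped with DMSO. The changes were -0.27 with punicalagin (adjusted p 0.616, limma), -0.36 with myricetin (0.608) and -0.20 with quercetin (0.708). All were negative and none was past the threshold.

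FBP1, which takes a phosphate from fructose bisphosphate, was the gene of the 9 whose arrays lay above all DMSO arrays with each of the 3 compounds. It read 4.95, 4.67 and 4.64 with DMSO, 5.69, 5.65 and 5.17 with punicalagin, 5.54 and 5.19 with myricetin, and 5.18 and 5.40 with quercetin. Its signal was modest, at the 40.3 to 58.0 percentile. The 3 compounds overlapped with each other.

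The change of FBP1 was 0.75 with punicalagin (SE 0.18, 1.68-fold, adjusted p 0.0792, limma), 0.61 with myricetin (SE 0.19, adjusted p 0.309) and 0.54 with quercetin (SE 0.19, adjusted p 0.182). The values with punicalagin were 0.74, 0.99 and 0.53 at passages 6, 7 and 8. Without the DMSO array of passage 6, or without the punicalagin array of passage 8, FBP1 passed the threshold in the comparison of punicalagin with DMSO. FBP1 also passed there with all 10 arrays in the fit and with array weights. The adjusted p over all alternatives of that comparison ran from 0.0186 to 0.312. Differences between compounds were 0.08 to 0.21, with 95% intervals reaching from -0.38 to 0.63.

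TXNIP gave a bright signal, at the 97.0 percentile or above on every array. It read 10.50, 10.67 and 10.63 with DMSO, 10.99, 11.21 and 10.56 with punicalagin, 11.04 and 10.98 with myricetin, and 9.99 and 10.18 with quercetin. The quercetin arrays were below all other arrays and the myricetin arrays above all DMSO arrays. Punicalagin overlapped with DMSO through its array of passage 8.

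Against DMSO the change of TXNIP was 0.32 with punicalagin (SE 0.18, adjusted p 0.559, limma), 0.41 with myricetin (SE 0.18, adjusted p 0.543) and -0.51 with quercetin (SE 0.18, adjusted p 0.177). The sign thus differed between quercetin and the other compounds, though no change from DMSO passed the threshold. Directly compared, TXNIP was 1.90-fold higher with myricetin than with quercetin (0.93 on the log2 scale, 95% interval 0.49 to 1.36, adjusted p 0.0411, limma), by 1.05 at passage 7 and 0.80 at passage 8. It was 1.79-fold higher with punicalagin than with quercetin (0.84, 0.44 to 1.23, adjusted p 0.0257, limma), by 1.22 and 0.38 at these passages. Punicalagin and myricetin differed by -0.09, with an interval of -0.48 to 0.30.

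The clusters most like TXNIP across the 10 arrays were GIMAP6, SCAMP5 and TMEM71 (Pearson's r 0.93 each), and 11 of 4204 clusters had r above 0.9.

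The pairs of compounds were 3, each tested over all clusters. Punicalagin and quercetin differed in 3 of the 9 genes (CPT1A, SLC25A20 and TXNIP), all higher with punicalagin, beside 3.91% of all clusters. Myricetin and quercetin, the flavonols that differ by a hydroxyl group, differed in 1 of 9 (TXNIP), beside 1.70%. Punicalagin and myricetin differed in 0 of 9 by limma, beside 0.528%, and at an unadjusted p under 0.05 in 1, CPT1A, beside 8.92% of all clusters. For the other 8 genes between myricetin and quercetin the differences were -0.16 (ANGPTL4) to 0.66 (SLC25A20), and their intervals together reached from -0.81 to 1.11, so this comparison does not show that the flavonols act alike on them.

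These calls rest on few arrays. Without quercetin replicate 1 or without quercetin replicate 2, 0 of 9 genes passed between punicalagin and quercetin. Without punicalagin replicate 1 or without punicalagin replicate 2, 1 gene (SLC25A20) passed, and without punicalagin replicate 3 CPT1A was lost. Between myricetin and quercetin TXNIP was lost when any of the 4 arrays compared was left out. A lone array left in a group is taken there to vary like the other groups. Over all alternatives tried the differences kept their direction, at 0.55 to 0.66 for CPT1A, 0.74 to 1.05 for SLC25A20 and 0.69 to 1.01 for TXNIP between punicalagin and quercetin, and 0.83 to 1.02 for TXNIP between myricetin and quercetin.

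**Figure D2:**
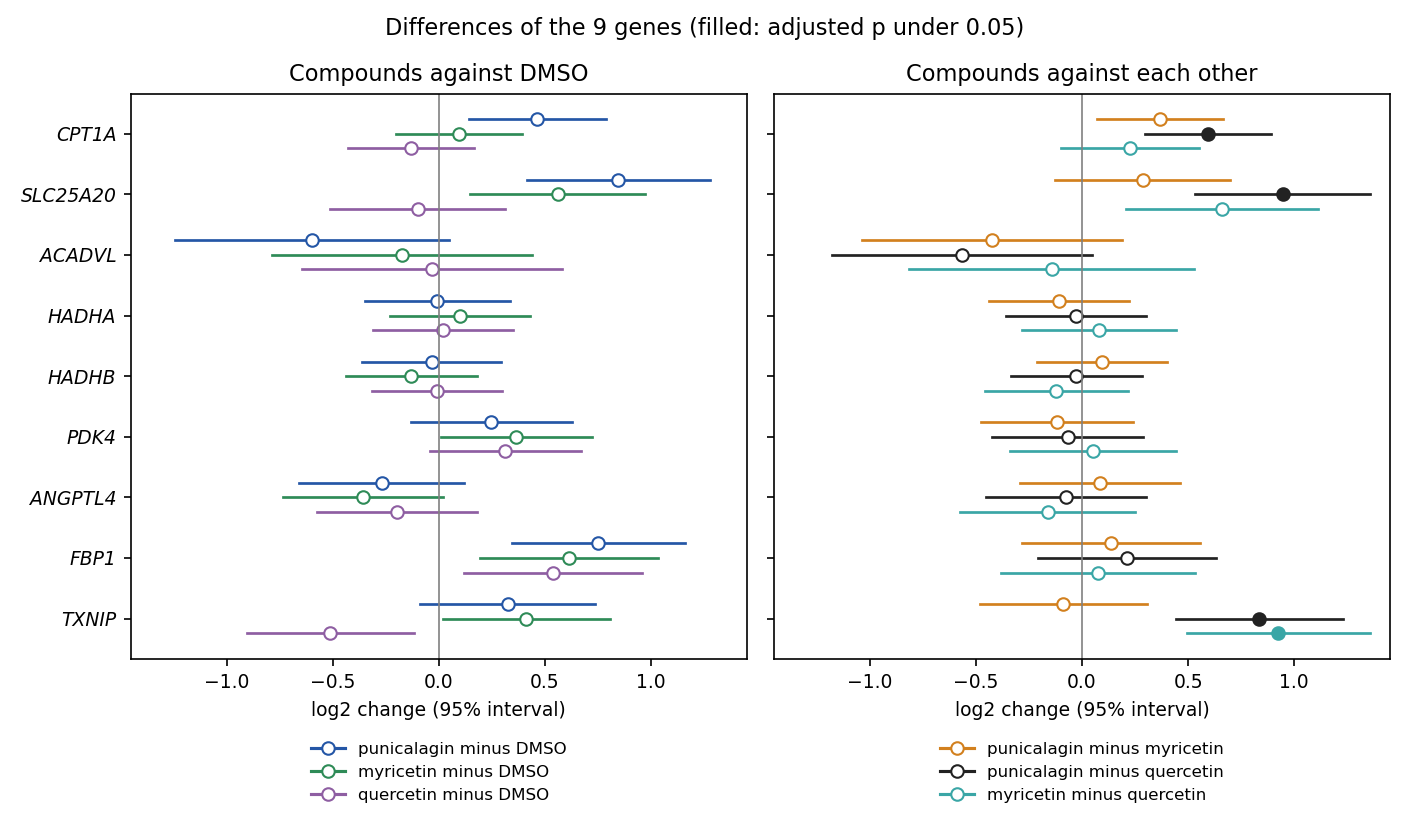
Log2 change of each of the 9 genes (points) with its 95% interval from limma (lines), for each compound against DMSO on the left and for compounds against each other on the right; filled points have an adjusted p under 0.05. No point is filled against DMSO, and 4 are filled on the right: CPT1A, SLC25A20 and TXNIP between punicalagin and quercetin, and TXNIP between myricetin and quercetin.

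The other genes of the same pathways were taken from 16 lists, and 163 of their 186 genes had a cluster of their own symbol and were analysed. Of the carnitine shuttle 7 further genes were measured, and none passed in any comparison with DMSO. With punicalagin all 7 had negative values, with a median of -0.07 that lay near the -0.05 over all clusters. None of the 7 had an unadjusted p under 0.05 (limma). CPT1A stood at 0.46 and SLC25A20 at 0.85 in this comparison. With quercetin all 7 were negative too, with a median of -0.42 beside -0.04 over all clusters, and 4 of them had an unadjusted p under 0.05 (14.8% of all clusters did). The largest was SLC22A5, the plasma membrane carnitine transporter, at -0.58 (adjusted p 0.0794, limma). CRAT, the short-chain carnitine acyltransferase, was 0.56 higher with myricetin than with quercetin (adjusted p 0.0922, limma).

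Of 19 further genes of mitochondrial beta-oxidation none passed in any of the 6 comparisons, and the medians against DMSO were 0.01, 0.00 and -0.08 for punicalagin, myricetin and quercetin. ACAD8, an acyl-CoA dehydrogenase of valine breakdown, was 1.00 higher with myricetin than with quercetin (adjusted p 0.0675, limma). ACADM, the medium-chain dehydrogenase, was 0.65 higher (adjusted p 0.206).

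Peroxisomal beta-oxidation had 10 measured genes, of which 1 passed. EHHADH, the peroxisomal bifunctional enzyme and a classical PPARA target, fell by 0.91 with quercetin (SE 0.21, adjusted p 0.0343, limma). It read 4.06 and 3.74 with quercetin against 4.63, 4.76 and 5.06 with DMSO, and with punicalagin and myricetin it differed by -0.23 and 0.01. Its signal was dim, below the median of all clusters on every array. On both quercetin arrays the lower quartile of all clusters was 3.63 and the median 5.20. The call of EHHADH was lost without either quercetin array and without the DMSO array of passage 7 or 8. It was also lost with all clusters tested or quantile normalization repeated.

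Among 5 genes of ketone body metabolism none passed. OXCT1, which activates acetoacetate for use, was -0.80 with quercetin (adjusted p 0.0924, limma) and -0.76 with punicalagin (adjusted p 0.183). BDH1, the mitochondrial hydroxybutyrate dehydrogenase, was -0.63 with punicalagin (adjusted p 0.0715). None of 12 genes around pyruvate dehydrogenase passed either. PDK2, the widely expressed kinase of that family, was 0.80 higher with myricetin than with quercetin (adjusted p 0.0875). MPC1, a subunit of the mitochondrial pyruvate carrier, was -0.59 with quercetin (adjusted p 0.274).

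None of the 10 genes of malonyl-CoA and AMPK control passed. ACACB, whose product makes the malonyl-CoA that restrains CPT1, was -0.56 with quercetin (adjusted p 0.0947, limma). The 13 further genes of gluconeogenesis had no call, with medians of 0.15, 0.07 and 0.05 against DMSO, beside 0.75, 0.61 and 0.54 for FBP1. PCK2, the mitochondrial PEP carboxykinase, was 0.90 higher with punicalagin than with quercetin (adjusted p 0.242). Of 5 uncoupling proteins UCP2, the form of immune cells, rose by 0.72 with quercetin (adjusted p 0.0470, limma), and it was 0.54 with punicalagin (0.230) and 0.61 with myricetin (0.248). The call of UCP2 was lost without either quercetin array and without the DMSO array of passage 7 or 8. It was also lost with a trended robust spread, all clusters tested, array medians subtracted or quantile normalization repeated.

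TXNIP was set beside 11 genes of its relatives, partners and regulators. ARRDC3, an arrestin-domain protein of the same family, fell with punicalagin (-0.74, SE 0.15, adjusted p 0.0437, limma) and with myricetin (-0.87, SE 0.15, adjusted p 0.0235), the compounds with which TXNIP read 0.32 and 0.41 above DMSO. ARRDC3 was 10.20, 10.63 and 10.41 with DMSO, 9.59, 9.74 and 9.68 with punicalagin and 9.49 and 9.58 with myricetin, without overlap. The quercetin arrays, at 10.25 and 10.21, lay within the range of DMSO. The call with punicalagin was lost without each single array other than the DMSO array of passage 6, with values of -0.85 to -0.64 over all arrays left out in turn. That with myricetin was lost without either myricetin array or the DMSO array of passage 7. Both calls of ARRDC3 were also lost with a trended robust spread or all clusters tested. The call with punicalagin was lost with array medians subtracted as well.

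TXNRD1, the thioredoxin reductase, was with punicalagin at 0.500 times its level with quercetin (SE 0.18 on the log2 scale, adjusted p 0.0108, limma). It read 7.87, 8.08 and 8.13 with punicalagin and 9.15 and 8.90 with quercetin, and this call was lost without either quercetin array. MLXIPL, which encodes ChREBP, and MLXIP, which encodes MondoA, did not pass in any comparison. ARRDC4, another glucose-responsive family member, was -0.43, -0.49 and -0.35 with punicalagin, myricetin and quercetin, with adjusted p of 0.391 to 0.444 (limma).

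In the list of ANGPTL4 relatives and lipase partners 6 genes were measured, and LIPG, the endothelial lipase, was the single call. It rose by 2.13 with punicalagin (SE 0.20, 4.37-fold, adjusted p 0.00183, limma), against 0.92 with myricetin (adjusted p 0.0766) and 0.69 with quercetin (adjusted p 0.0779). LIPG was higher with punicalagin than with myricetin by 1.21 (adjusted p 0.0263) and than with quercetin by 1.43 (adjusted p 0.00271). The call against myricetin was lost without 1 array of either compound, except the punicalagin array of passage 8, and with passage as a block. That against quercetin was lost without the quercetin array of passage 7.

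The receptors gave 1 call, and the storage genes gave more. PPARG rose with each compound, from 7.16, 6.81 and 6.90 with DMSO to 8.19, 8.20 and 8.24 with punicalagin, 7.99 and 7.88 with myricetin and 7.99 and 7.99 with quercetin. The rises were 1.25 (adjusted p 0.00373, limma), 0.98 (0.0107) and 1.03 (0.00138). The myricetin call was lost without either myricetin array, and the others held without each single array. PPARA and PPARD are given for comparison, though neither passed: PPARD was -0.80 with punicalagin (adjusted p 0.0576) and PPARA was -0.43 with quercetin (adjusted p 0.216).

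Of 13 PPAR targets of lipid uptake and storage, 4 rose with each compound: FABP4, CD36, LPL and PLIN2. CD36, the fatty acid translocase, rose by 4.32, 3.45 and 3.99 with punicalagin, myricetin and quercetin, and PLIN2, the coat protein of lipid droplets, by 1.26, 1.35 and 1.38 (adjusted p at most 0.00465, limma). With myricetin FABP4 and LPL lost the call without either myricetin array, LPL also without the DMSO array of passage 7, and PLIN2 without the myricetin array of passage 8. None of the 13 differed between compounds past the threshold. The 9 genes described here, read on the same arrays, gave 0 calls against DMSO in each comparison in the main fits. Of all clusters 2.33%, 0.509% and 3.92% passed there with punicalagin, myricetin and quercetin, so 0 of 9 lies near that share. The 9 genes and the list of 13 were chosen with earlier results of these data known. Their counts of calls were not tested against each other.

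Among the lists outside these pathways, 8 proliferation genes had no call in any comparison. Of 12 NF-kB inflammatory genes 1 fell with punicalagin (NFKBIA, -0.99, adjusted p 0.0220, limma) and none passed with myricetin or quercetin. With myricetin all 12 changes were negative, with a median of -0.57 against 0.00 over all clusters. Of the 12, 6 were at an unadjusted p under 0.05 (limma), beside 8.62% of all clusters. Myricetin has no array of passage 6. On the DMSO array of that passage 11 of the 12 were higher than on the other DMSO arrays, by a median of 0.90. The part of that array in these changes was not tested. NFKBIA lost its call when DMSO replicate 2 or either of the first 2 punicalagin replicates was left out. In the comparison where CPT1A, SLC25A20 and TXNIP were higher with punicalagin than with quercetin, 3 of the 12 were lower (CXCL2 by -1.69, TNFAIP3 by -0.69 and NFKBIA by -0.68). TNFAIP3 and NFKBIA lost this call with passage as a block, and all 3 lost it without either quercetin array. Where TXNIP was higher with myricetin than with quercetin, 2 were lower (CXCL2 by -2.04 and CXCL8 by -1.40), and both lost the call when any of the 4 arrays compared was left out. Markers of monocytes and macrophages and of other cells also differed. With punicalagin 7 of 9 monocyte and macrophage markers were above DMSO and 2 below, with a median of 0.67 against -0.05 over all clusters. At an unadjusted p under 0.05 (limma) there were 7 of these 9, beside 12.3% of all clusters. Against DMSO, FCER1G rose with punicalagin (1.16, adjusted p 0.0194, limma), and with quercetin CD68 rose (1.13, adjusted p 0.0103) and PTPRC fell (-0.79, adjusted p 0.0233). FCER1G lost this call without DMSO replicate 2 or either of the first 2 punicalagin replicates, and CD68 without either quercetin array. PTPRC lost it without either quercetin array or the DMSO array of passage 7 or 8. PECAM1, an endothelial and leukocyte adhesion gene, rose with punicalagin (1.24, adjusted p 0.00589, limma). Between punicalagin and quercetin PTPRC (1.39, adjusted p 0.00147), FCER1G (0.995, adjusted p 0.0154) and PECAM1 (0.67, adjusted p 0.0440) were higher with punicalagin by limma. PECAM1 lost this call with passage as a block and without any single array of these compounds. FCER1G lost it without either quercetin array or the punicalagin array of passage 6, and PTPRC without the quercetin array of passage 7. The part of these markers in the results on the 9 genes was not tested.

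**Figure D3:**
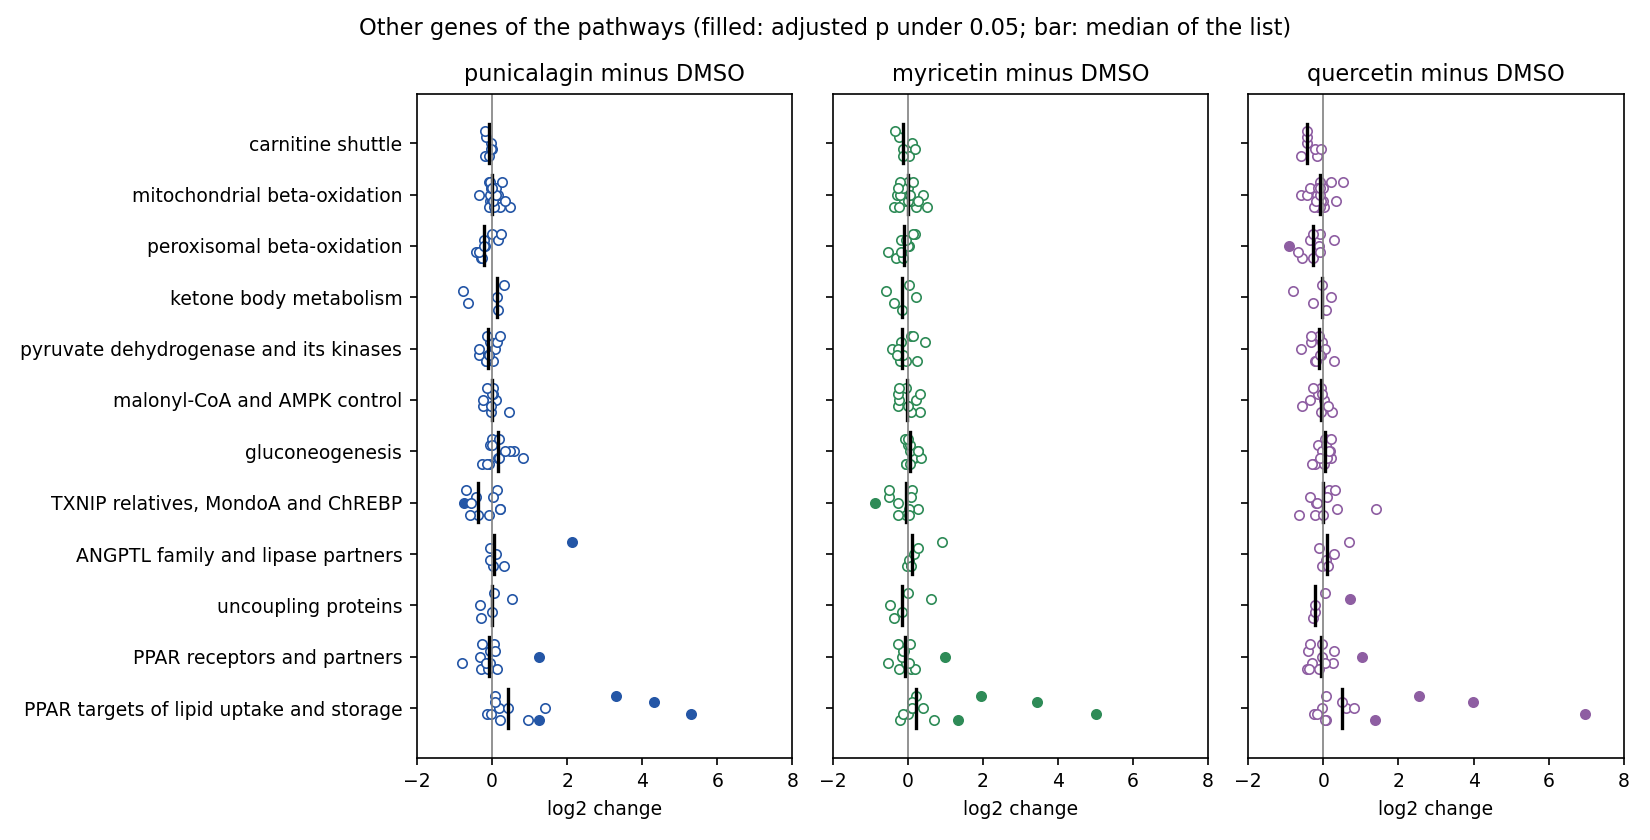
Log2 change against DMSO of the measured genes in 12 lists around the 9 genes, 1 point per gene, with a bar at the median of each list and filled points for an adjusted p under 0.05 (limma); the 9 genes themselves are not shown. Filled points lie mainly among the targets of lipid uptake and storage, 4 with each compound, and no gene of the carnitine shuttle or of mitochondrial beta-oxidation is filled.

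**Figure D4:**
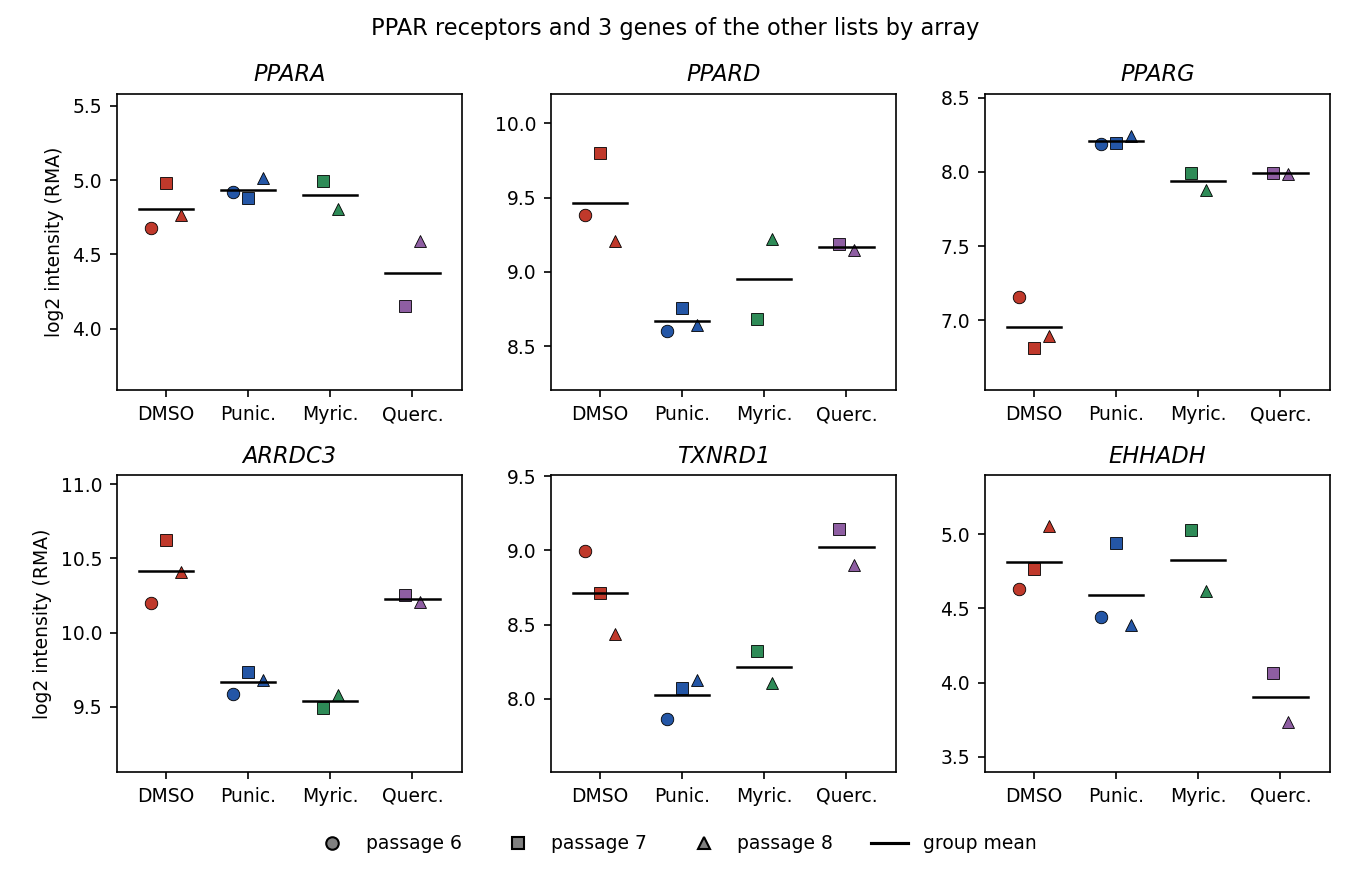
Log2 intensity (RMA) by array of the 3 PPAR receptors and of ARRDC3, TXNRD1 and EHHADH, with symbols for the passage and a line at the group mean. PPARG lies above DMSO with every compound, ARRDC3 is below DMSO with punicalagin and myricetin, TXNRD1 is lower with punicalagin and myricetin than with quercetin, which overlaps with DMSO, and EHHADH is lowest with quercetin.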

How the data were processed

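RNA of 10 THP-1 macrophage cultures was measured on Affymetrix Human Gene 1.0 ST arrays. For each transcript cluster the authors deposited a log2 intensity, made with RMA (background correction, quantile normalization, log transformation). Partek 7.0, RMA and Affymetrix Expression Console are the tools given in the submitters' processing notes. Whether all 10 arrays were normalized together is not stated in the sources used here. RMA draws small differences of dim clusters towards 0, and the number of arrays limits precision. No detection calls were used.

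A probe table gave 1 symbol to 19460 clusters, several to 1754 and none to 12083. Clusters with a symbol were tested with limma 3.58.1 in R 4.3.3 (lmFit, eBayes, Benjamini-Hochberg, adjusted p under 0.05). Punicalagin against DMSO used their 6 arrays, and other comparisons used all 10. The code was tested on simulated data. Passages come from the labels. Deviations from group means of DMSO and punicalagin arrays of the same passage correlated at -0.10 to 0.36, against -0.44 to 0.33 across passages, and passage was a block in an alternative.

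Members and lists were chosen with earlier results of these data known. Named from each list were up to 4 called genes per comparison with the largest change, or up to 2 where none passed, and for likeness the 3 clusters with the highest correlation. PPARA, PPARD, ARRDC4, MLXIP and MLXIPL were named after their values were seen. Alternatives were fits on other arrays, passage as a block, array weights, a trended robust spread, other filters and scalings, leaving out each array, and a t-test standing for the analysis of variance of the methods.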

Additional observations from a re-analysis of the deposited data

How the results depend on the processing

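With passage as a replicate block no call among the 9 genes changed: 0 against DMSO with each compound, 0 between punicalagin and myricetin, 3 between punicalagin and quercetin and 1 between myricetin and quercetin. Against DMSO, punicalagin called 2 genes with all 10 arrays (1014 clusters in all, against 494) or with array weights (951), 1 among clusters above the median (519 of 12095) and 0 to 1 with 1 array left out; quercetin called 3 with array weights (2539 clusters in all). A t-test equals the analysis of variance of the methods for 2 groups. With Benjamini-Hochberg adjustment it called 0 clusters of any kind, so none of the 9 genes. At an unadjusted p under 0.05 and a 2-fold change it called 374, 106 and 372 clusters for punicalagin, myricetin and quercetin. The t-test called none of the 9 genes there, since all changed less than 2-fold from DMSO. Unadjusted and without a fold criterion, which are not the criteria of the methods and were chosen after seeing the data (like leaving out the DMSO array of passage 6 between compounds), it called 3, 4 and 2 genes beside 2264, 1374 and 2315 clusters in all. Between punicalagin and quercetin the count was 1 with all clusters tested and 0 to 3 with 1 array left out. Between myricetin and quercetin it was 2 with array weights (2560 clusters in all, against 361), 0 with a trended robust spread, all clusters tested or array medians subtracted, and 0 to 1 with 1 array left out. The genes that did not overlap with DMSO rose from 3 to 5 (punicalagin) and from 5 to 8 (myricetin) on passages 7 and 8, while the clusters in all that did not overlap rose from 3721 to 9180 and from 5029 to 10266. The cause of these shifts was not tested.

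Of 711 values under alternatives 29 changed sign, all small, none past the threshold. HADHB, quercetin against DMSO, was 0.0163 with the block, 0.0189 on passages 7 and 8 and 0.0121 with array weights. With quantile normalization repeated, HADHA in that comparison was -0.0186 and PDK4 between myricetin and quercetin -0.0188. With 1 array left out the ranges that crossed 0 were, for punicalagin against DMSO -0.11 to 0.0798 (HADHA) and -0.11 to 0.0619 (HADHB), for myricetin against DMSO -0.39 to 0.0410 (ACADVL), for quercetin against DMSO -0.0441 to 0.0272 (HADHB), -0.25 to 0.18 (ACADVL) and -0.0615 to 0.10 (HADHA). They were, for punicalagin against myricetin -0.0178 to 0.23 (ANGPTL4), -0.23 to 0.0898 (TXNIP) and -0.0373 to 0.31 (FBP1), for punicalagin against quercetin -0.21 to 0.0740 (ANGPTL4), -0.13 to 0.0602 (HADHA) and -0.10 to 0.0703 (HADHB), for myricetin against quercetin -0.0105 to 0.17 (HADHA), -0.0290 to 0.13 (PDK4) and -0.10 to 0.25 (FBP1).

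The clusters called in all moved by more than 1.5 times under many alternatives: with array weights they were 951, 533 and 2539 for punicalagin, myricetin and quercetin against DMSO. With 1 array left out they ranged over 127 to 660, 5 to 335 and 240 to 1639 for these compounds, and over 66 to 1523 between punicalagin and quercetin; the highest of each, 660, 335, 1639 and 1523, was without the DMSO array of passage 6. Few arrays and no detection calls limit what dim genes such as PDK4 and ANGPTL4 can show.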
